A study of Mus musculus with 8 samples.

Results

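Neuronal immediate early genes were followed in whole brains of adult mice whose mothers had received ethanol or saline during pregnancy. The set comprised Fos, Fosb, Junb, Egr1, Egr2, Egr3, Egr4, Arc, Npas4 and Nr4a1. Each gene was read from the probe set that is annotated with that symbol alone, taking the one with the highest mean over the 8 arrays where there were several. All 10 genes were found, among 23410 probe sets with a gene symbol and 35556 in all.

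The mice were male C57BL/6J offspring killed at postnatal day 70. Their dams were injected subcutaneously with 2.5 g/kg ethanol in saline, 2 injections a day, or with saline alone, on gestational days 8 and 11 (early exposure, which the labels call trimester 1) or on gestational days 14 and 16 (late exposure, trimester 2). Each of the 4 groups had 2 arrays of the type Affymetrix Mouse Gene 1.0 ST, which carry short DNA probes for most known transcripts, and each array was hybridised with RNA pooled from 3 mice that were not littermates. All dams, controls included, were injected. The mice were killed by carbon dioxide, to which the methods add dislocation of the neck, and the brains were removed and snap-frozen. Neither the delay before freezing nor the time of day of death is given in the sources used here.

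Immediate early genes are switched on within minutes of a strong synaptic input, without the need for new protein. Calcium entry and growth factor signals activate kinases that phosphorylate CREB, bound at cAMP response elements (CRE), and the partners of serum response factor (SRF), bound at CArG boxes. Most of the products are transcription factors, and Arc acts directly at the synapse. Because their transcripts are short-lived, the amount in a brain can reflect recent activity, arousal and handling as well as its cells. In adult brain these genes are best known as markers of neurons that took part in a recent experience.

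The upstream sequences of the genes that the results below turn on are shown to place these 2 kinds of site. RefSeq promoter windows of mouse build GRCm38.p6, 250 bases before to 50 bases after a transcription start, were found for 7 of the 10 genes (Fos, Fosb, Junb, Egr2, Egr4, Npas4 and Nr4a1). Each stretch runs 5′ to 3′ on the gene's own strand and ends at or before the last base ahead of the start, with the CRE core TGACG, on either strand, in capitals. Npas4 is shown because it had the largest difference after early exposure (chr19:4989972-4990171, minus strand), Nr4a1 because it varied most between arrays (chr15:101266596-101266845, plus strand), and Fos as the gene that gave the class its best-known marker (chr12:85473740-85473889, plus strand).
Npas4: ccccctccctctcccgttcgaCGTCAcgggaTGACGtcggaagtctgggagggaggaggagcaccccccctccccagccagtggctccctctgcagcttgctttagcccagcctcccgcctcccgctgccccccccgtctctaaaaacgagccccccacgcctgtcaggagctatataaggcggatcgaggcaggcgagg
Nr4a1: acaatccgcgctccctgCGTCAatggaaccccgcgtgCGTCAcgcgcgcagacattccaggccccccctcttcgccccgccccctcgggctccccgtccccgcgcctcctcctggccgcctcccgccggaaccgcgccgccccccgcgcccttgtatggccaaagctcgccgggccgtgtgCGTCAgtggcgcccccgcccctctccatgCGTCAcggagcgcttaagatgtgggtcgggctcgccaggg
Fos: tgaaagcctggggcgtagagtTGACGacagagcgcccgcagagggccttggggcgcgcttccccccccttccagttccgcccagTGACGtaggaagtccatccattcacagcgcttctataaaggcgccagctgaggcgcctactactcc

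The CRE core occurred 4 times in the Nr4a1 stretch and 2 times each in those of Npas4 and Fos. It was present in at least 1 window of all 7 genes, against 20.8% of all 32851 promoter windows. In Fos the core nearest the start lay 66 to 62 bases ahead of it, and in Nr4a1 the nearest lay 40 to 36 bases ahead. The full palindrome TGACGTCA was found in the windows of 0 of the 7 genes (1.79% of all windows), and so was the AP-1 site TGANTCA, which FOS and JUN proteins bind (7.81% of all windows). The EGR site GCGNGGGCG was found in Fosb and Nr4a1 (5.55% of all windows). Of the 7 genes, Egr2 alone had a CArG box (1.63% of all windows), and it had boxes at separate genomic positions. Egr2 had 5 windows, and a box not shown lay 72 to 63 bases ahead of a start further downstream. The box furthest upstream is in capitals below, 72 to 63 bases ahead of the transcription start of its window (chr10:67537484-67537513, plus strand).
Egr2: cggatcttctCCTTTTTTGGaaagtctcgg

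These matches describe letters in a window and say nothing of binding in these brains. Sites more than 250 bases ahead of a start were not searched, nor was any sequence of Egr1, Egr3 or Arc. The windows of 1 gene overlap or differ in number, so the gene count and the share of windows are not on the same footing.

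Values are on the log2 scale of the authors' RMA summary, where a difference of 1 is a 2-fold change. The median over all probe sets of an array was 6.74 to 6.84 for early exposure but 7.21 to 7.30 for late exposure, so levels are set side by side within a timing only. As a background level, the 95th percentile over 1212 probe sets of odorant and vomeronasal receptors, which serve sensory neurons of the nose, was 6.40 to 6.55 for early exposure, and for late exposure it was 7.28 to 7.70. In the early arrays 9 of the 10 genes had a mean above it, Fos being the exception. In the late arrays 6 did (Fosb, Egr1, Egr3, Arc, Npas4 and Nr4a1), and Fos, Junb, Egr2 and Egr4 did not, so differences in those genes have little signal behind them. Set against each array's own level, late Fosb was above in 3 of 4 arrays and late Egr2 in 2. In the early arrays Junb was above in 3, and Fos and Egr4 in 2 each.

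After early exposure Npas4 was lower in ethanol, by 1.38-fold, and it was the only gene of the 10 past both thresholds that the study used, 1.2-fold and a p of 0.05 before adjustment. The other 9 genes overlapped between the groups. None of the 10 passed an adjusted p of 0.05, and neither did any of the 23410 probe sets in limma (0%), of which 401 had an unadjusted p under 0.05. Within the early arrays, 1 array of each group held all 10 genes higher than the other array did. In each group this gap exceeded the difference between ethanol and saline for 8 of the 10, though not for the same 8.

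Npas4 encodes a transcription factor that is induced by calcium entry and is largely restricted to neurons, where it governs inhibitory synapses. In the early arrays it measured 7.84 and 7.42 in ethanol and 8.17 and 8.03 in saline. Both ethanol arrays lay below both saline arrays. The difference was -0.47 (SE 0.17, 95% interval -0.86 to -0.07, limma, adjusted p = 1). Past the same thresholds, 0.645% of all probe sets were lower in ethanol and 0.278% were higher. Without ethanol replicate 2 the Npas4 difference was -0.26, and without saline replicate 1 it was -0.40, and in neither case did it pass a p of 0.05 before adjustment. An exact permutation test of a single gene has no use here, since 2 arrays against 2 allow 6 arrangements and a two-sided p no smaller than 0.333. In a bulk sample, fewer cells that express a gene and less RNA per cell cannot be told apart.

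**Figure D1:**
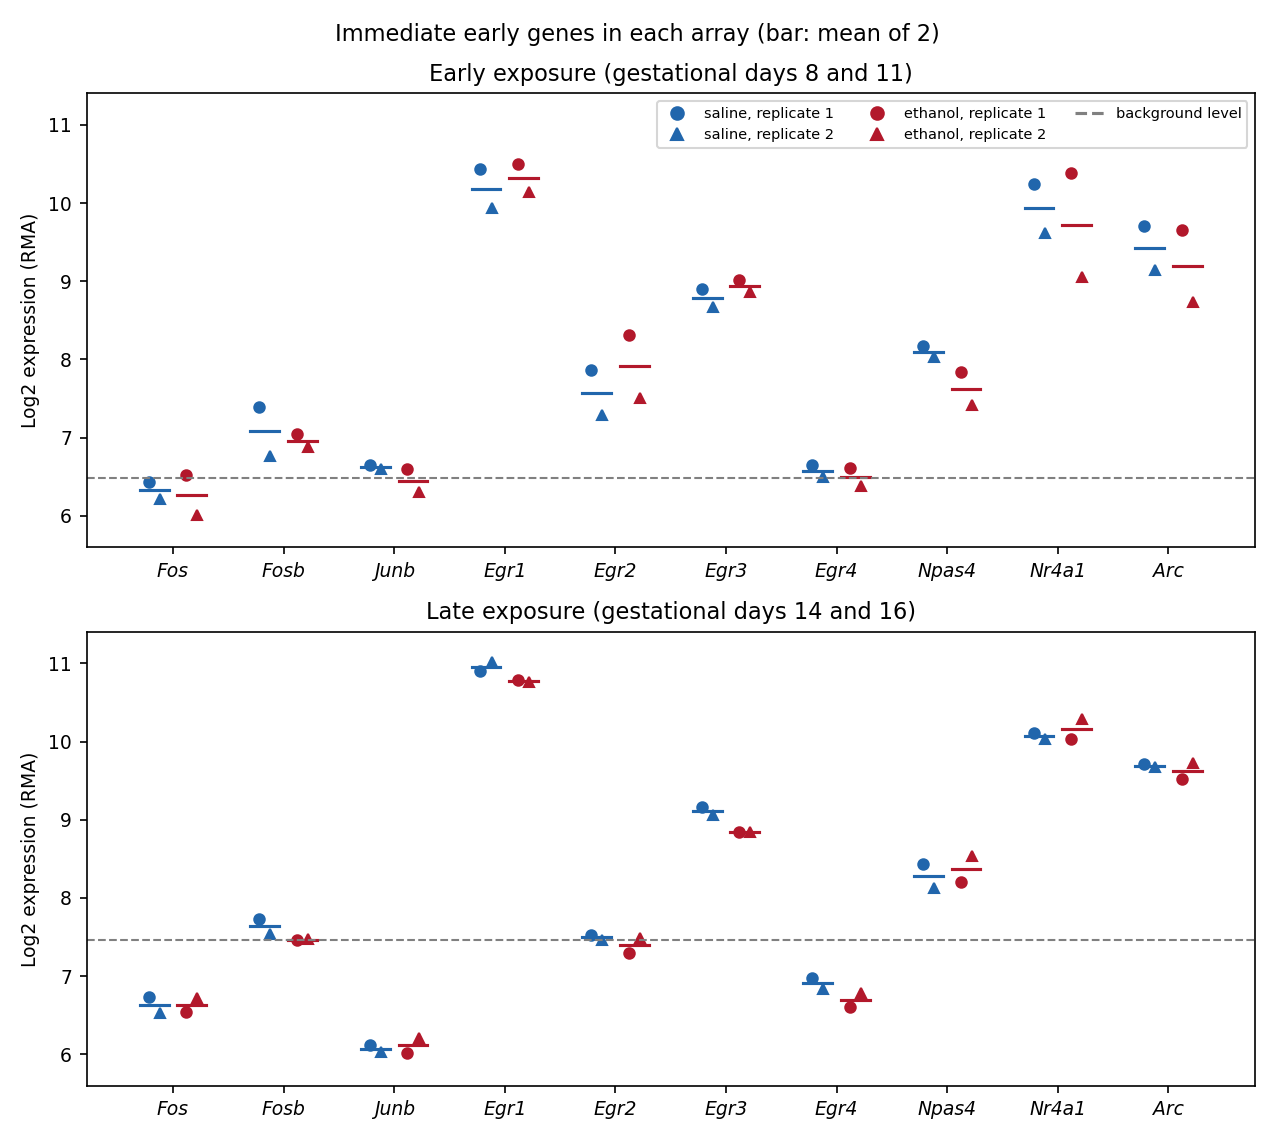
Log2 expression (RMA, vertical axis) of the 10 genes in each array, early exposure above and late exposure below. Blue is saline and red is ethanol, circles and triangles are replicates 1 and 2, short bars are means of 2 arrays, and the dashed line is the mean background level of the timing. In the early panel Npas4 is the one gene with both red points below both blue points, and the circle lies above the triangle in every pair.

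The FOS and JUN proteins pair to form the AP-1 transcription factor. Fos measured 6.52 and 6.01 in the early ethanol arrays and 6.44 and 6.22 in the early saline arrays. The ethanol pair enclosed the saline pair, and the difference was -0.06 (95% interval -0.44 to 0.32). Fosb, whose truncated splice form is stable and builds up with repeated stimulation, measured 7.04 and 6.87 in ethanol and 7.39 and 6.76 in saline. Here the saline pair enclosed the ethanol pair, with a difference of -0.12 (95% interval -0.54 to 0.29). Junb, a JUN partner that can restrain c-Jun, measured 6.60 and 6.30 in ethanol and 6.65 and 6.60 in saline. The difference was -0.17 (95% interval -0.44 to 0.10), and 1 ethanol array reached the level of the lower saline array.

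The EGR proteins are zinc finger transcription factors that bind GC-rich sites and are held back by the corepressors NAB1 and NAB2. Egr1, the member most used as an activity marker, measured 10.50 and 10.14 in ethanol and 10.44 and 9.93 in saline after early exposure. The 2 pairs interleaved, with a difference of 0.13 (95% interval -0.26 to 0.53). Egr2, which also directs myelination in Schwann cells, measured 8.32 and 7.51 in ethanol and 7.86 and 7.29 in saline. Its difference of 0.34 was the largest in the upward direction among the 10 genes, yet its 95% interval ran from -0.25 to 0.93. Egr3, which acts in synaptic plasticity and in muscle spindle development, measured 9.01 and 8.87 in ethanol and 8.90 and 8.67 in saline, a difference of 0.16 (95% interval -0.08 to 0.39). Egr4 measured 6.61 and 6.39 in ethanol and 6.65 and 6.49 in saline, close to the background level, with a difference of -0.07 (95% interval -0.33 to 0.19). Of the EGR genes, 3 were higher and 1 lower in ethanol, and all 4 overlapped.

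Arc encodes a cytoskeleton-associated protein that drives removal of AMPA receptors from synapses. It measured 9.65 and 8.73 in ethanol and 9.70 and 9.15 in saline after early exposure. The difference was -0.23 (95% interval -0.87 to 0.41), smaller than the distance between the 2 ethanol arrays. Nr4a1, an orphan nuclear receptor, measured 10.38 and 9.05 in ethanol and 10.25 and 9.62 in saline. The ethanol pair held both the highest and the lowest of the 4 values, and the difference of -0.22 had the widest interval of the 10 genes (-1.07 to 0.64).

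The median difference of the 10 genes after early exposure was -0.10, beside -0.02 over all probe sets tested. Of the 10, 7 were lower and 3 higher in ethanol, and of the 23410 probe sets 13988 were lower. Both ethanol arrays lay below both saline arrays for 1 gene and above them for 0, against 18.9% and 7.5% of all probe sets. The share of 1 in 10 was thus no larger than the background. The sign of the median turned when 1 array was left out: leaving out ethanol replicate 2 gave 0.21, leaving out saline replicate 1 gave 0.07 and leaving out ethanol replicate 1 gave -0.26.

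The spread between the 2 arrays of a group was the leading feature of these genes in the early arrays. In early ethanol the arrays differed by 1.32 for Nr4a1, by 0.93 for Arc and by 0.81 for Egr2. Gaps at least as large were seen in 0.239%, 0.765% and 0.867% of all probe sets tested. Fos followed with a gap of 0.51 and Npas4 with 0.41. In every one of the 10 genes the first ethanol array was the higher. So it was for 14 of 16 general neuron markers and 7 of 8 astrocyte markers, but for only 2 of 13 olfactory bulb markers. The count was 13 of 16 for cortical and hippocampal excitatory neurons, 10 of 13 for cerebellar cells and 9 of 11 for oligodendrocytes. It was 7 of 10 for microglia, 7 of 11 for striatal neurons, 5 of 9 for endothelial cells and 1 of 4 for blood. The share over all probe sets was not counted.

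In early saline the gaps were 0.63 for both Nr4a1 and Fosb, 0.57 for Egr2, 0.55 for Arc and 0.51 for Egr1. Again all 10 genes were higher in the first array, as were 13 of 16 general neuron markers and 8 of 8 astrocyte markers. Only 2 of 13 olfactory bulb markers were. The count was 14 of 16 for cortical and hippocampal excitatory neurons, 10 of 13 for cerebellar cells and 10 of 11 for oligodendrocytes. It was 9 of 10 for microglia, 9 of 11 for striatal neurons, 2 of 9 for endothelial cells and 1 of 4 for blood. The median gap of the 10 genes was 0.39 in early ethanol and 0.37 in early saline, beside 0.09 and 0.11 over all probe sets. It was 0.18 in late ethanol and 0.12 in late saline, beside 0.11 and 0.10. Of the 10 genes, 7 in early ethanol and 5 in early saline had a gap past the 90th percentile of all probe sets, against 1 in each late group (Npas4 in both).

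**Figure D2:**
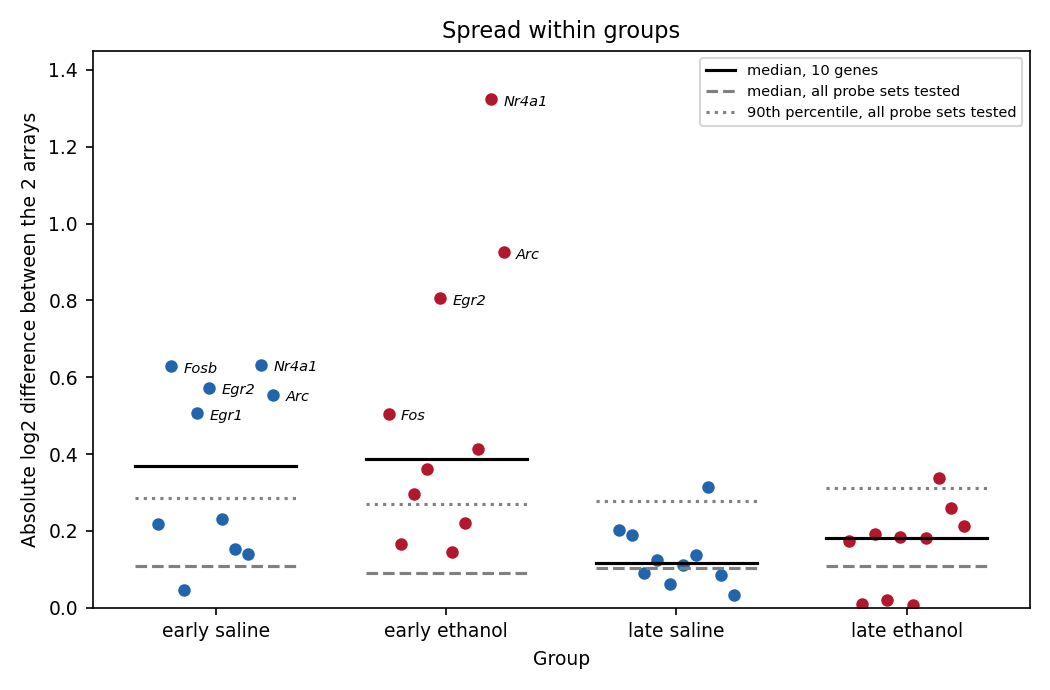
Absolute log2 difference between the 2 arrays of a group (vertical axis) for each of the 10 genes, by group. Solid lines are medians of the 10 genes, dashed lines medians and dotted lines 90th percentiles of all 23410 probe sets tested, and genes past 0.5 are named. The early groups reach 1.32 (ethanol) and 0.63 (saline), and the late groups stay at or below 0.34.

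Averaged over the 10 genes, the deviation from the mean of the 4 early arrays was 0.22 in ethanol replicate 1, -0.29 in ethanol replicate 2, 0.22 in saline replicate 1 and -0.15 in saline replicate 2. Thus 1 high and 1 low array stood in each early group. Over all probe sets the same arrays deviated by -0.01 to 0.01 on average. Marker lists of cell types and regions differed in how they deviated across these 4 arrays. The 16 general neuron markers (such as Snap25) deviated by 0.11, -0.02, 0.05 and -0.13 in the same order, and the 8 astrocyte markers by 0.07, -0.05, 0.15 and -0.17, all with the signs of the 10 genes. The lists of cortical and hippocampal excitatory neurons, striatal neurons, cerebellar cells, oligodendrocytes and microglia had these signs too. The 13 olfactory bulb markers deviated by -0.33, -0.09, 0.14 and 0.27 and the 9 endothelial markers by -0.04, -0.08, 0.03 and 0.09, with the opposite sign in ethanol replicate 1 and saline replicate 2. The 4 blood markers deviated by -0.06, 0.02, 0.0008 and 0.04. What part these have in the spread of the immediate early genes was not tested. In the late arrays the average over the 10 genes was -0.12 and 0.04 in ethanol replicates 1 and 2. It was 0.09 and -0.02 in saline replicates 1 and 2, beside -0.02 to 0.02 over all probe sets in the late arrays. Late ethanol replicate 1 held 0 of the 10 genes above their late mean, and late saline replicate 1 held 9.

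**Figure D3:**
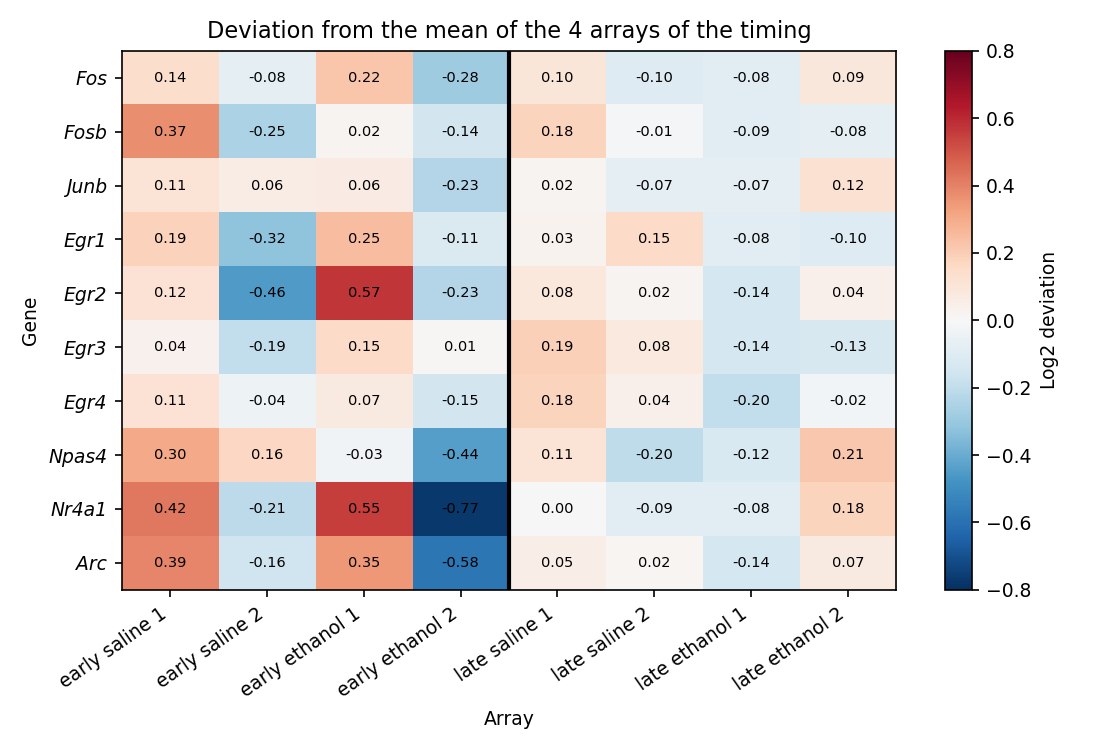
Log2 deviation of each gene (rows) in each array (columns) from its mean over the 4 arrays of the same timing, red above and blue below. Early saline 1 and early ethanol 1 are red almost throughout, with Npas4 in early ethanol 1 at -0.03, and early ethanol 2 falls to -0.77 for Nr4a1, whereas late values lie between -0.20 and 0.21.

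After late exposure Egr3 was lower in ethanol, by 1.21-fold, and it was the only gene of the 10 past the study's thresholds. Fosb, Egr1 and Egr4 were also lower without overlap between the groups, by smaller or noisier differences. None of the 10 passed an adjusted p of 0.05, nor did any probe set in limma (0%), of which 583 had an unadjusted p under 0.05.

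Egr3 measured 8.84 and 8.85 in the late ethanol arrays and 9.17 and 9.06 in the late saline arrays. Both ethanol arrays lay below both saline arrays. The difference was -0.27 (SE 0.10, 95% interval -0.50 to -0.04, limma, adjusted p = 1). Of all probe sets, 0.722% were lower and 0.44% higher in ethanol past the study's thresholds. The fold was close to the threshold of 1.2: after quantile normalization over the 8 arrays the difference was -0.23, and after cyclic loess it was -0.23, both short of it. Leaving out ethanol replicate 1, ethanol replicate 2 or saline replicate 1 gave -0.26, -0.27 and -0.21, none of which passed a p of 0.05 before adjustment.

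Egr1 measured 10.78 and 10.76 in late ethanol and 10.90 and 11.02 in late saline. The groups did not overlap, and the difference was -0.18 (95% interval -0.58 to 0.21). Egr4 measured 6.60 and 6.78 in ethanol and 6.98 and 6.84 in saline, again without overlap, with a difference of -0.22 (95% interval -0.48 to 0.04). All 4 arrays lay below their own background level for Egr4. Egr2 measured 7.30 and 7.48 in ethanol and 7.53 and 7.46 in saline, and here the groups overlapped, with a difference of -0.10 (95% interval -0.69 to 0.49). All 4 EGR genes were thus lower in late ethanol, as were 12330 of the 23410 probe sets. Of the 4, 3 had both ethanol arrays below both saline arrays, beside 15.7% of all probe sets. So did 8 of 16 general neuron markers and 7 of 11 oligodendrocyte markers. With 1 array left out, the late differences ran from -0.25 to -0.12 for Egr1, -0.31 to -0.13 for Egr4 and -0.19 to -0.01 for Egr2. Fitted to the late arrays alone, the standard error was 0.09 for Egr3, 0.11 for Egr4 and 0.09 for Egr1, and Egr3 was again the only one of the 10 genes past the study's thresholds.

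Fosb measured 7.46 and 7.47 in late ethanol and 7.73 and 7.54 in late saline. The groups did not overlap, and the difference was -0.17 (95% interval -0.59 to 0.25). In late ethanol replicate 1 Fosb lay below the background level of that array, 7.70. Fos measured 6.54 and 6.72 in ethanol and 6.73 and 6.53 in saline, a difference of 0.0048 (95% interval -0.38 to 0.39) whose sign turned with the scaling, to -0.017 after median centring, -0.038 after quantile normalization and -0.034 after cyclic loess. Junb measured 6.02 and 6.21 in ethanol and 6.12 and 6.02 in saline, a difference of 0.05 (95% interval -0.22 to 0.31). Fos and Junb were at or below the background level in these arrays.

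Npas4 measured 8.21 and 8.54 in late ethanol and 8.44 and 8.12 in late saline. The pairs interleaved, and the difference was 0.09 (95% interval -0.30 to 0.49). Nr4a1 measured 10.03 and 10.29 in ethanol and 10.11 and 10.03 in saline, a difference of 0.09. Its interval of -0.76 to 0.95 carries the spread of the early arrays, since all 8 arrays share 1 estimate of the error. Fitted to the late arrays alone, the standard error fell from 0.37 to 0.11. Arc measured 9.52 and 9.73 in ethanol and 9.71 and 9.67 in saline, a difference of -0.07 (95% interval -0.71 to 0.57).

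Across the 10 genes the late median difference was -0.08, beside -0.01 over all probe sets tested, and 6 were lower and 4 higher, Fos among the higher on the deposited scale but not after rescaling. Both ethanol arrays lay below both saline arrays for 4 genes, against the 15.7% of all probe sets, and above them for 0, against 12.7%. Lower without overlap were also 8 of 16 general neuron, 8 of 13 cerebellar, 7 of 11 oligodendrocyte and 5 of 9 endothelial markers. The count was 4 of 16 for cortical and hippocampal excitatory neurons and 4 of 13 for olfactory bulb. It was 2 of 10 for microglia, 1 of 11 for striatal neurons, 1 of 8 for astrocytes and 0 of 4 for blood. Of the related genes read below, 11 of 31 effector genes, 9 of 27 upstream genes and 5 of 18 other transcription factors were lower without overlap. The 4 immediate early genes share the same 4 arrays and are not independent of one another. Without ethanol replicate 1 the late median was 0.01, and without ethanol replicate 2 it was -0.17.

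**Figure D4:**
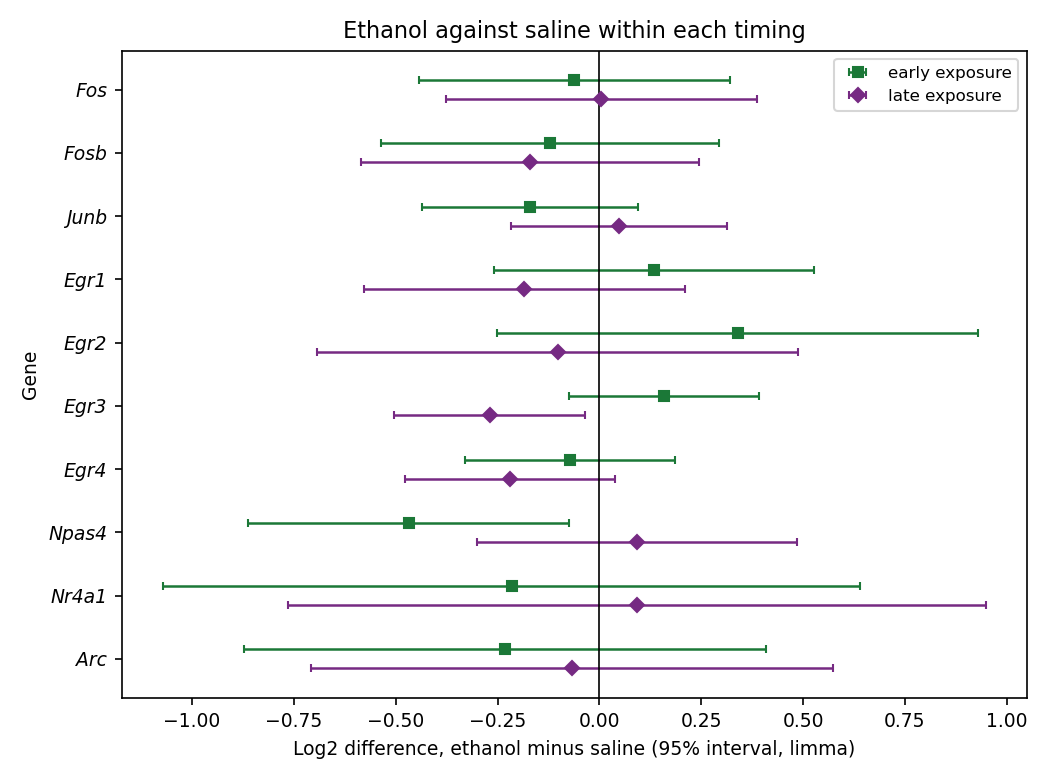
Log2 difference, ethanol minus saline (horizontal axis), for each gene (vertical axis) after early (green squares) and late (purple diamonds) exposure, with 95% intervals from the limma fit to all 8 arrays. The interval leaves out 0 for Npas4 after early exposure (-0.86 to -0.07) and for Egr3 after late exposure (-0.50 to -0.04).

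The difference between the timings was tested as the early effect minus the late effect. For Egr3 it was 0.43 (SE 0.14, 95% interval 0.10 to 0.76, limma, adjusted p = 1), with the gene 0.16 higher after early and 0.27 lower after late ethanol relative to saline. For Npas4 it was -0.56 (SE 0.24, 95% interval -1.12 to -0.003, limma, adjusted p = 1). Both passed an unadjusted p of 0.05, as did 2.06% of all probe sets, and 0% passed after adjustment. With 1 array left out the value ran from 0.31 to 0.54 for Egr3 and from -0.77 to -0.35 for Npas4. Egr3 no longer passed an unadjusted p of 0.05 without early ethanol replicate 1, early saline replicate 2 or late saline replicate 1. Npas4 no longer passed it without early ethanol replicate 2, without either early saline array, and without replicate 2 of either late group. The intervals of the other 8 genes all included 0. For Fosb, which was lower after both exposures, the difference between timings was 0.05 (95% interval -0.54 to 0.64).

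A further 18 immediate early transcription factors were read as a group. After early exposure 12 of the 18 were lower in ethanol, with a median difference of -0.05, beside 13988 of all 23410 probe sets, and 1 passed the study's thresholds, beside 0.645% of all probe sets in that direction. This was Btg2, an antiproliferative coregulator, which measured 8.26 and 8.11 in ethanol and 8.55 and 8.72 in saline (difference -0.45, SE 0.17, limma, adjusted p = 1). After late exposure 11 of 18 were lower, with a median of -0.01, beside 12330 of all probe sets, and 1 passed, beside 0.722% of all in that direction. This was Fosl2, an AP-1 subunit, which measured 7.29 and 7.44 in ethanol and 7.72 and 7.73 in saline (difference -0.36, SE 0.13, limma, adjusted p = 1). In late ethanol replicate 1 Fosl2 lay below the background level of that array, 7.70. With 1 array left out Btg2 ran from -0.54 to -0.36 and no longer passed without ethanol replicate 2 or saline replicate 2, and Fosl2 ran from -0.43 to -0.28 and passed only without ethanol replicate 2. Btg2 was 0.23 higher in late ethanol with overlapping arrays, and its early effect minus its late effect was -0.68 (95% interval -1.24 to -0.12, limma, adjusted p = 1).

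Activity-induced genes that encode signalling, secreted and synaptic proteins gave 0 of 31 measured genes past the study's thresholds in either timing. The early median was -0.03, with 19 lower, and the late median was -0.07, with 22 lower, beside 13988 and 12330 of the 23410 probe sets. The smallest early p belonged to Gem, a small GTPase that lay at background (-0.12, SE 0.08), and to Scg2, a secretogranin of dense-core vesicles (-0.17, SE 0.11). The smallest late p belonged to Dusp14, a phosphatase acting on MAP kinases (-0.22, SE 0.09), and to Homer1, a postsynaptic scaffold gene (-0.27, SE 0.12). Homer1 measured 10.65 and 10.60 in late ethanol and 10.92 and 10.87 in late saline, without overlap. Its gene-level value does not separate the long form from the short, activity-induced one.

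Upstream kinases, transcription factors and corepressors, 27 of them measured, had a median difference of 0.02 after early and -0.04 after late exposure. In the early comparison 1 passed the study's thresholds, beside 0.645% of all probe sets in that direction. This was Atf1, a CREB-family factor that binds the CRE, which measured 7.51 and 7.59 in ethanol and 7.97 and 7.92 in saline (difference -0.40, SE 0.10, limma, adjusted p = 1). Creb1 itself measured 9.42 and 9.60 in early ethanol and 9.55 and 9.47 in early saline, a difference of 0.002. In the late comparison none passed, and the smallest p belonged to Creb1 (-0.16, SE 0.09) and to Camkk2, a calcium-dependent kinase kinase (-0.17, SE 0.11). Atf1 still passed with any 1 array of the early groups left out (-0.44 to -0.36). For Atf1 the early effect minus the late effect was -0.38 (95% interval -0.69 to -0.07, limma, adjusted p = 1).

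Of the related genes, the effector genes held the most with a wide spread in the early arrays. In early ethanol 10 of the 31 effector genes had a gap past the 90th percentile of all probe sets, and in early saline 13 did, against 3 in each late group. Of the 18 other transcription factors it was 2 in early ethanol and 4 in early saline, against 2 and 1 in the late groups, and of the 27 upstream genes 5 and 2, against 0 and 1. The largest gap of an effector gene, named after the values were seen, was in Dusp1, a MAP kinase phosphatase induced with the Fos family, which measured 10.80 and 9.59 in early ethanol. Among the other transcription factors it was Per1, a clock gene that also responds to activity, at 9.89 and 9.11 in the same arrays. In both, the higher array was the one in which all 10 immediate early genes were higher.

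The genes whose array-to-array pattern came closest to the mean of the 6 immediate early genes above background in both timings were sought among 270 genes with at least as wide a spread. They were Rasl11b, Scn4b, Cd63, Zdhhc22, Etv3 and Rangrf, with a root mean square difference from that mean of 0.07 to 0.09 over 8 arrays. The 10 genes themselves lay at 0.08 to 0.21. Etv3, an ETS-family repressor, measured 8.93 and 8.14 in early ethanol and 8.68 and 8.46 in early saline. Scn4b, a sodium channel beta subunit that is strong in striatum, measured 8.96 and 8.24 in early ethanol and 8.81 and 8.57 in early saline. In both the first array of each early group was the higher. Since the genes were chosen for closeness to that mean, this is not a separate observation.

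Markers of cell types and brain regions were read beside these differences, since the RNA of a whole brain mixes its cell types and regions. After early exposure all 13 olfactory bulb markers were lower in ethanol (median -0.43), and the mean of that list was 7.26 to 7.50 in the ethanol arrays and 7.74 to 7.86 in the saline arrays. The 16 general neuron markers had a median of 0.07 and the 16 markers of cortical and hippocampal excitatory neurons one of -0.02. After late exposure 12 of 13 cerebellar granule and Purkinje cell markers were lower in ethanol (median -0.31), with list means of 9.90 to 10.21 in ethanol and 10.29 to 10.34 in saline. The 16 general neuron markers had a late median of -0.06 and 14 of them were lower, and the 11 oligodendrocyte markers one of -0.12. General neuron markers lay above background in all 16 cases in both timings, and 1 of 4 measured blood markers did. The part of these lists in the differences of Npas4 and Egr3 was not tested.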

How the data were processed

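The deposited values were used as they stand. The authors summarized each probe set of the Affymetrix Mouse Gene 1.0 ST arrays by RMA with quantile normalization and GC adjustment, on the log2 scale, in Partek. The submitters' processing notes give version 6.6, and the paper's methods give an earlier version for the gene expression arrays. Quantile normalization forces arrays to a common distribution, so a shift shared by most genes would not be seen. The study's methods describe the early expression arrays. The late arrays were taken to be processed alike, and their other median points to separate normalization. The genome build is not given in the sources used here.

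The groups come from the labels, with 2 arrays each. Nothing ties equal replicate numbers to a shared litter or day. The p-values measure the spread between pools of 3 mice, and the number of arrays limits the precision. Probe sets without a gene symbol (34.2% of 35556) were left out, leaving 23410. Ethanol and saline were compared with limma 3.58.1 (R 4.3.3) on 4 group means over 8 arrays, with Benjamini-Hochberg adjustment over all 23410, and the fit was checked on simulated data. The study's thresholds were an unadjusted p of 0.05 and a fold of 1.2. A fold here is 2 to the power of the absolute log2 difference. All limma tests were two-sided.

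The 10 genes, the other gene lists and the tests were chosen with earlier results of these data known. The rule for named genes was all 10 members and, of each other list and timing, up to 4 genes past the study's thresholds or else the 2 of smallest p. Alternatives were other scalings, filters, error models, a replicate block and leaving out each array. Motifs were searched on both strands of RefSeq promoter windows with Python 3.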

Additional observations from a re-analysis of the deposited data

How the results depend on the processing

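With 2 arrays a group, 1 array decides most values for these genes. No gene of the 10 passed an adjusted p of 0.05 under any alternative run. The early count past the study's thresholds, 1 gene (Npas4), became 0 with an unmoderated test on 4 arrays. It became 2 (Egr2 and Npas4) with a replicate block, and 2 with that block after crossing the late saline numbers, an alternative added after seeing the data. It ranged from 1 to 4 with 1 array left out, with Junb, Arc, Npas4 and Nr4a1 past them without ethanol replicate 1, Egr2 alone without ethanol replicate 2, Egr1 and Egr3 without saline replicate 1, and Fosb and Npas4 without saline replicate 2. The late count, 1 gene (Egr3), became 0 after quantile normalization over 8 arrays and 0 after cyclic loess, and ranged from 0 to 1 with 1 array left out. The early median ranged from -0.26 to 0.21 in the same way.

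Equal replicate numbers were not taken as pairs: the 2 early pairs deviated together over all probe sets (correlation 0.47) and the 2 late pairs apart (-0.46). The replicate block changed no other call of the 10 genes in ethanol against saline, and for Npas4 the early effect minus the late effect no longer passed an unadjusted p of 0.05 under it. Nor did it pass after median centring, with array weights or with every probe set tested. Btg2 after early exposure did not pass under the block or with the unmoderated test.

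With 1 array left out, the early difference ran from -0.31 to 0.19 for Fos, -0.44 to 0.19 for Fosb, -0.12 to 0.39 for Egr1, -0.064 to 0.74 for Egr2, -0.18 to 0.039 for Egr4, -0.69 to 0.23 for Arc and -0.88 to 0.45 for Nr4a1, and, without a change of sign, from -0.32 to -0.022 for Junb, 0.043 to 0.27 for Egr3 and -0.67 to -0.26 for Npas4. The late difference ran from -0.096 to 0.11 for Fos, -0.048 to 0.14 for Junb, -0.17 to 0.039 for Arc, -0.076 to 0.26 for Npas4 and -0.038 to 0.22 for Nr4a1, and, without a change of sign, from -0.19 to -0.010 for Egr2 and -0.26 to -0.075 for Fosb. The late Fos difference was -0.017 after median centring, -0.038 after quantile normalization and -0.034 after cyclic loess. Leaving out the lowest 50% of probe sets kept 6 of the 10 genes. The causes were not tested. Signal near background limits Fos, Junb, Egr2 and Egr4 in the late arrays.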
